A study of Homo sapiens with 12 samples.

Results

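A set of 9 genes of the mevalonate pathway, from acetyl-CoA condensation to squalene epoxidation, was followed across the 4 culture conditions of the study. They were chosen by their symbols, as ACAT2, HMGCS1, MVK, PMVK, MVD, IDI1, FDPS, FDFT1 and SQLE, and all 9 were found among the 16389 genes of the count table. The cells were HepG2, an established human liver cancer line, kept for 48 h in medium with 5.5 mM glucose (LG) or 20 mM glucose (HG), without drug or followed by 12 h in 1 mM valproic acid (LGV and HGV). Each group had 3 libraries of poly(A)-selected RNA. Valproic acid (VPA) is a fatty acid drug that inhibits histone deacetylases. Neither the labels nor the methods say whether the untreated cells were harvested before or after those 12 h, so VPA and culture time cannot be told apart. The labels also do not say that replicates came from separate cultures, and p-values then measure only the spread between these libraries. A single cell line was used in all 4 groups, so the comparisons describe that line alone.

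The pathway turns acetyl-CoA into isoprenoid units and then into squalene, the first committed precursor of sterols. In liver cells its genes are known as targets of SREBP2, a membrane-bound transcription factor that is released when sterols in the endoplasmic reticulum run low. ACAT2 joins acetyl-CoA units into acetoacetyl-CoA and HMGCS1 makes HMG-CoA from it. MVK and PMVK add phosphate groups to mevalonate, and MVD removes a carboxyl group to give isopentenyl diphosphate. IDI1 interconverts the isoprene isomers and FDPS joins them into farnesyl diphosphate, from which prenyl groups, dolichol and ubiquinone side chains also branch off. FDFT1 condenses farnesyl diphosphate into squalene, and SQLE adds the oxygen that precedes ring closure.

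Between 29798442 and 45572694 reads per library fell on genes. The members were well covered, with counts from 330 reads for PMVK in LGV replicate 2 to 12113 reads for FDFT1 in HGV replicate 2. All 9 passed the filter on low counts in every comparison, through reads present in all groups. Levels are given as CPM, reads per 1000000 after TMM scaling, which corrects for differences in RNA composition. The genes are scattered over the genome (GRCh37): HMGCS1 lies on chromosome 5 from 43287572 to 43313614, PMVK and FDPS on chromosome 1 from 154897216 to 154909195 and from 155278539 to 155290457, MVD on chromosome 16 from 88718343 to 88729569 and IDI1 on chromosome 10 from 1085092 to 1095059. Scaling factors ran from 0.879 to 1.095, and 3 reads stood for 0.0713 to 0.112 CPM. All 6 hepatocyte markers were present in every library, with ALB between 18946 and 29437 CPM, AFP between 3656 and 7746 CPM and TTR, the lowest, between 125 and 232 CPM. Summed, they ranged from 32729 to 37133 CPM in LG, 32123 to 39894 CPM in HG, 26200 to 26701 CPM in LGV and 29449 to 39508 CPM in HGV. HNF4A, FGB and APOH were lower with VPA in both media, with log2 fold changes between -0.46 and -0.95, TTR was higher with VPA in HG (0.51), and FGB was higher in HG than in LG (0.88). Of 8 markers of blood, endothelial, fibroblast and squamous cells, 3 had a row in the table. The sum of these 3 ranged from 3.77 to 5.20 CPM in LG, 6.94 to 8.25 CPM in HG, 3.86 to 4.94 CPM in LGV and 7.38 to 8.31 CPM in HGV. CD14 was higher with high glucose (log2 fold change 1.28 without and 1.51 with VPA) and lower in HGV than in HG (-0.56, FDR 0.0218). COL1A1, at most 2.64 CPM in any library, was higher with VPA in both media (2.36 and 2.52). The part of these marker differences in the results was not tested.

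The 250 bases upstream of the RefSeq start of 6 of the 9 genes were searched on both strands for CCAAT, the letters of the CCAAT box, which reads ATTGG on the other strand. At least 2 copies were found for HMGCS1, IDI1, MVK, MVD and FDPS and none for PMVK, and ACAT2, FDFT1 and SQLE were not analysed here. Of 35116 such windows over all genes, some of which overlap, 32.0% held the letters and 9.53% held them at least 2 times. The windows of 4 genes are printed 5′ to 3′ with these letters in capitals, for 2 members with large glucose differences (HMGCS1 and IDI1), the member that was higher with VPA in both media (MVK) and the member without a call between HG and LG (PMVK).
HMGCS1: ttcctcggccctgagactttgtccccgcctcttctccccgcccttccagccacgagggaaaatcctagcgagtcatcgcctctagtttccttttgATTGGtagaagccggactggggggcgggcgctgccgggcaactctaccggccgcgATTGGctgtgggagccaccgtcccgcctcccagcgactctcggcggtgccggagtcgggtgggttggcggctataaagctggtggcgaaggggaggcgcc
IDI1: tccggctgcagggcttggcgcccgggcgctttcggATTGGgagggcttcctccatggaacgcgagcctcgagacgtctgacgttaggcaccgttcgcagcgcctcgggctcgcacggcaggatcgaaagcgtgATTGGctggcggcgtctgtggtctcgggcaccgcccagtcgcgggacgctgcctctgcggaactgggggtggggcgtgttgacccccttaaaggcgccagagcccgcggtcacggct
MVK: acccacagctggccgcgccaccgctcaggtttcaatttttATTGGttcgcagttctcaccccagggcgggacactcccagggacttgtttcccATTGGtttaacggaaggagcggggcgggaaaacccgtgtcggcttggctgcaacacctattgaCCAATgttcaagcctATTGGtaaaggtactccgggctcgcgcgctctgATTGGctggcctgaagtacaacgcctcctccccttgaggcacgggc
PMVK: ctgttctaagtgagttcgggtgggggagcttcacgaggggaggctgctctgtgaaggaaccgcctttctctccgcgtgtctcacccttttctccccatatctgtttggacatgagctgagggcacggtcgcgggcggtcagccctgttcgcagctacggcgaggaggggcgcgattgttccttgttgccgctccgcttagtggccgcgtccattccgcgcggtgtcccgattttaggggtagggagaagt
On GRCh37 these are chr5:43313515-43313764 on the minus strand, chr10:1095060-1095309 on the minus strand, chr12:110011349-110011598 on the plus strand and chr1:154909196-154909445 on the minus strand, and each ends at the base before the start of the gene's reference transcript. The copies counted 2 in HMGCS1, 2 in IDI1, 5 in MVK, 3 in MVD and 3 in FDPS. The core of the sterol regulatory element, searched as TCACNCCAC, was in none of the 6 windows and in 0.883% of all windows. The E box CACGTG was likewise in none and in 6.34% of all. The GC box GGGCGG was in all 6 and in 42.6% of all. A match describes the letters only, and a missing match says only that these letters are not in this window.

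Per length of transcript, the level of the members spanned more than an order of magnitude in LG, HG and LGV. In HGV it ran from 12.7 CPM per kb for MVK to 124 CPM per kb for FDFT1. In LG, FDFT1 was highest, with 81.4 ± 1.10 CPM per kb (SD, n = 3), and MVK lowest, with 4.43 ± 0.771 CPM per kb (SD, n = 3). Between them lay ACAT2 with 44.7, SQLE with 29.7, FDPS with 25.8, MVD with 21.5, PMVK with 16.4, HMGCS1 with 12.3 and IDI1 with 9.51 CPM per kb. The libraries of neighbours in this order overlapped for SQLE and FDPS, FDPS and MVD, and MVD and PMVK, and did not overlap for the other neighbours. FDFT1 stayed highest and MVK lowest in all 4 groups, also when length was taken over all annotated exons in place of the reference transcript. The order between them differed between groups and with the length used. With length over all exons, HMGCS1 had rank 5, FDPS rank 6 and MVD rank 7 in LG, in place of 7, 4 and 5. In HG rank 2 went to SQLE with 63.3 ± 5.80 CPM per kb (SD, n = 3), whose libraries overlapped those of ACAT2 between 56.9 and 63.1 CPM per kb. SQLE also had rank 2 and ACAT2 rank 3 in LGV, with 38.0 and 35.8 CPM per kb, where their libraries overlapped too. PMVK had rank 6 in LG, rank 7 in LGV and rank 8 in HG and HGV, below IDI1, but rank 4 in LG and LGV and rank 5 in HG and HGV with length over all exons. In HGV, ACAT2 had rank 5, with 33.7 ± 2.39 CPM per kb (SD, n = 3), and its libraries overlapped those of FDPS. With length over all exons ACAT2 had rank 3 there.

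**Figure D1:**
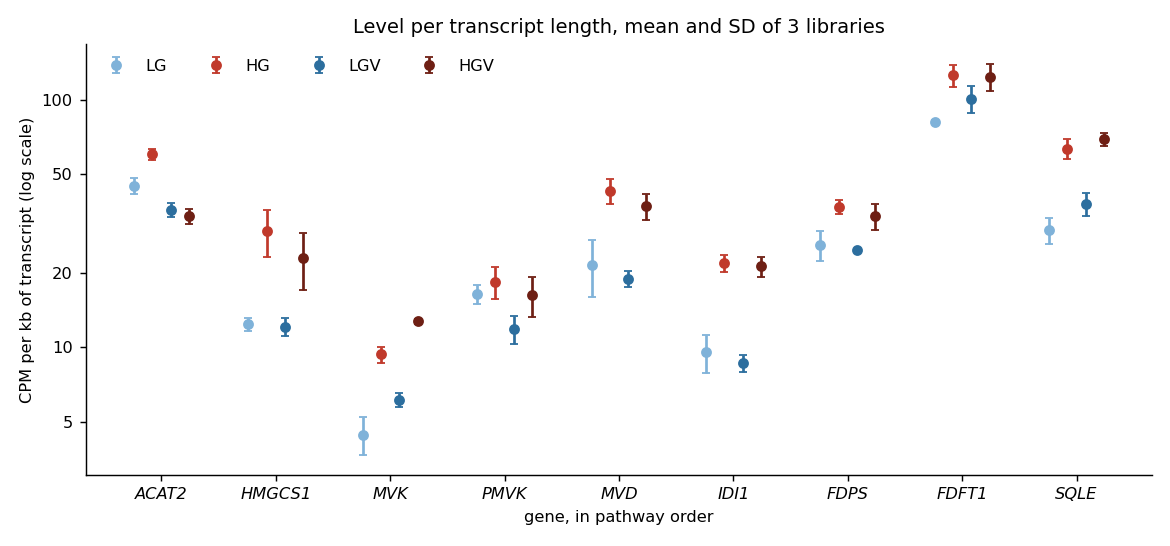
Level of each gene per kb of its reference transcript (log axis), in pathway order, with points for the mean and bars for the SD of 3 libraries in LG, HG, LGV and HGV. FDFT1 is highest and MVK lowest in all 4 groups, and the high glucose points lie above the low glucose points for all genes but ACAT2 with VPA.

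The first comparison asked what high glucose did to the pathway without VPA. Of the 9 genes, 8 were higher in HG than in LG and none was lower. Over all 15452 genes tested, 12.0% were called higher and 12.7% lower, 24.7% in all. The median log2 fold change was 1.02 over the 9 genes and 0.01 over all genes. The 3 HG libraries lay above the 3 LG libraries for the same 8 genes, which held for 19.3% of all genes tested (21.8% were apart with HG lower, 41.2% in either direction). Summed over the 9 genes, the level was 529, 483 and 542 CPM in LG and 940.0, 848 and 990.2 CPM in HG. The RNA was bulk, so a change in the share of cells that express a gene and a change in RNA per cell cannot be told apart.

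**Figure D2:**
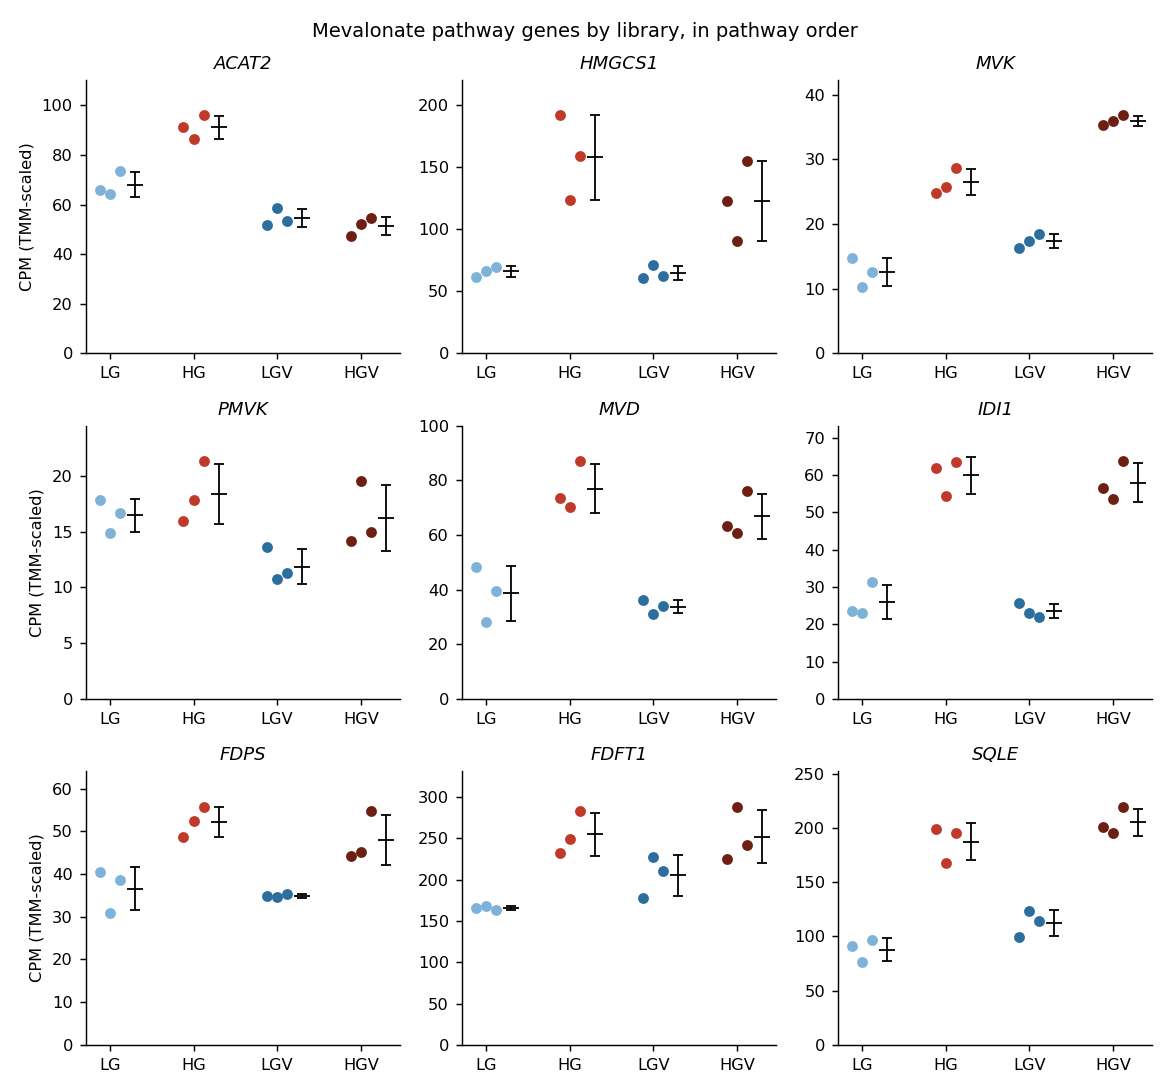
Level of the 9 genes in CPM, one panel per gene with its own axis from 0, with a point for each library and the mean and SD of each group beside it. HG lies above LG without overlap in all panels but PMVK, and in the VPA groups ACAT2 is low in both media.

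The opening steps of the pathway differed in size. HMGCS1, the cytosolic synthase of HMG-CoA, had 61.6, 66.7 and 69.8 CPM in LG and 192, 124 and 159 CPM in HG. This gave a log2 fold change of 1.28 (SE, the error of that estimate, 0.14, false discovery rate, FDR, 4.99e-06), although the HG libraries also spread widely. It was the largest of the 9 with all libraries, but IDI1 exceeded it without HG replicate 1 (1.21 against 1.13) and without LG replicate 3 (1.38 against 1.32). ACAT2 had 65.9, 64.4 and 73.6 CPM in LG and 91.1, 86.5 and 96.0 CPM in HG. The groups stood apart, but the log2 fold change was only 0.45 (SE 0.12, FDR 0.0116). Without HG replicate 3 the log2 fold change of ACAT2 was 0.44 with an FDR of 0.0577, so its call was lost at nearly the same value.

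Of the genes that act on mevalonate itself, the outer ones rose and the middle one did not pass the test. MVK had 14.7, 10.3 and 12.6 CPM in LG and 24.9, 25.7 and 28.7 CPM in HG, a log2 fold change of 1.10 (SE 0.16, FDR 0.000101). MVD had 48.4, 28.3 and 39.5 CPM in LG and 73.6, 70.3 and 87.0 CPM in HG, a log2 fold change of 1.02 (SE 0.16, FDR 0.000218). Its LG libraries were the most scattered of the 9 genes relative to their mean. PMVK, the kinase between them, had 17.8, 14.9 and 16.7 CPM in LG and 15.9, 17.9 and 21.3 CPM in HG. The groups overlapped, with a log2 fold change of 0.19 (95% interval -0.15 to 0.52, FDR 0.419), so a doubling like that of its neighbours lay outside the interval.

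The isoprenoid steps also differed in size. IDI1 had 23.7, 23.1 and 31.3 CPM in LG and 61.9, 54.3 and 63.4 CPM in HG, a log2 fold change of 1.22 (SE 0.15, FDR 1.15e-05). FDPS had 40.4, 30.8 and 38.6 CPM in LG and 48.6, 52.4 and 55.7 CPM in HG, a log2 fold change of 0.54 (SE 0.14, FDR 0.00862). FDPS thus rose by less than IDI1, and the 95% intervals, 0.25 to 0.83 and 0.92 to 1.52, did not overlap. FDPS has 8 annotated pseudogenes and IDI1 has 3. None has a row in the table, and reads shared with such copies may have been left out of the counts.

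The squalene steps rose together. FDFT1, squalene synthase, had 166, 168 and 163 CPM in LG, the tightest group of the 9, and 233, 249 and 284 CPM in HG. Its log2 fold change was 0.65 (SE 0.12, FDR 0.000853). SQLE, squalene epoxidase, had 91.0, 76.3 and 96.3 CPM in LG and 199, 168 and 196 CPM in HG, a log2 fold change of 1.11 (SE 0.13, FDR 6.46e-06). Apart from ACAT2 without HG replicate 3, each of the 8 calls held with any 1 library left out, where the highest FDR of the other 7 genes was 0.0472, that of FDPS. The number of genes called over the whole table was less stable, falling from 3813 to 2076 without HG replicate 3 and to 1933 without LG replicate 1.

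The second comparison put the same glucose difference to cells that had also received VPA. HGV and LGV share no library with HG and LG. Of the 9 genes, 7 were higher in HGV than in LGV and none was lower, while 21.2% of the 16208 genes tested were called higher and 19.5% lower, 40.7% in all. The median log2 fold change was 0.85 over the 9 genes and 0.01 over all genes. The HGV libraries lay above the LGV libraries for 7 of the 9 genes and for 27.7% of all genes (51.4% were apart in either direction). The 6 genes HMGCS1, MVK, MVD, IDI1, FDPS and SQLE were called higher in both glucose comparisons, 6 of the 8 called without VPA and 6 of the 7 called with it. The share of all genes called higher in both was not calculated, so this overlap has no background to be read against.

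**Figure D3:**
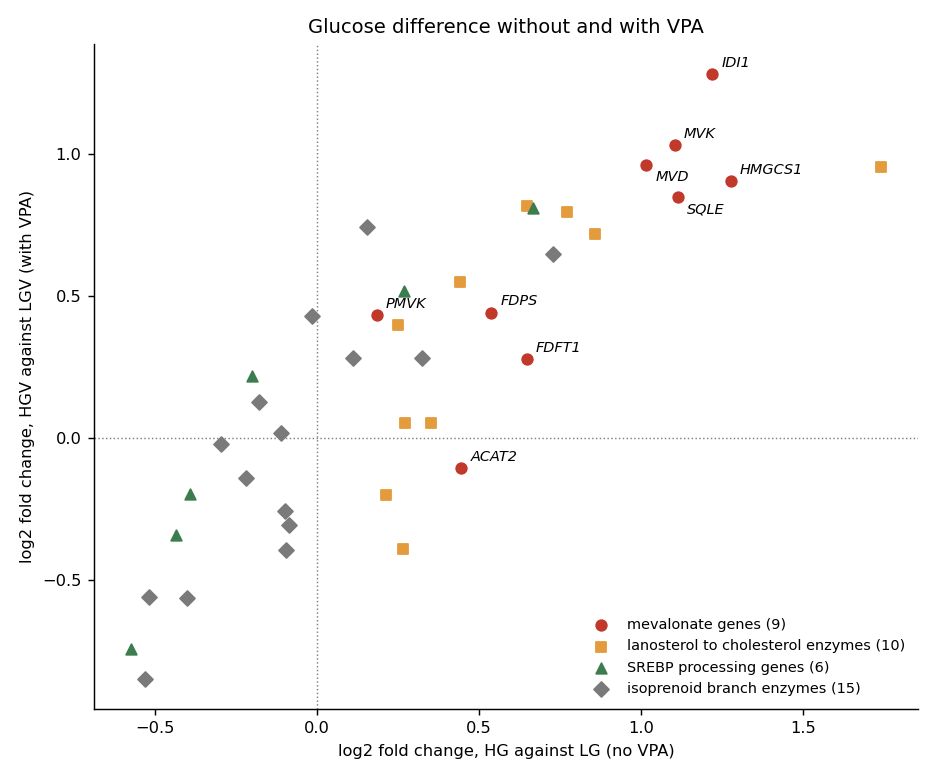
Log2 fold change of HG against LG (horizontal) and of HGV against LGV (vertical) for the 9 mevalonate genes and 3 related lists, 1 point per gene. The mevalonate genes other than ACAT2 lie in the upper right, with IDI1, MVK, MVD, HMGCS1 and SQLE farthest out, and ACAT2 lies just below 0 on the vertical axis.

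IDI1 had a wide difference with VPA, with 25.7, 23.1 and 21.9 CPM in LGV and 56.6, 53.6 and 63.7 CPM in HGV (log2 fold change 1.28, SE 0.12, FDR 9.01e-07). MVK had 16.3, 17.4 and 18.5 CPM in LGV and 35.3, 35.9 and 36.8 CPM in HGV (log2 fold change 1.03, SE 0.12, FDR 6.39e-06). In both genes the groups were far apart and the spread within them small. MVD had 36.2, 31.2 and 34.2 CPM in LGV and 63.4, 60.9 and 76.2 CPM in HGV (log2 fold change 0.96, SE 0.13, FDR 1.78e-05). HMGCS1 had 61.0, 70.9 and 62.3 CPM in LGV and 123, 90.6 and 155 CPM in HGV (log2 fold change 0.90, SE 0.16, FDR 0.000222). SQLE had 99.7, 123 and 115 CPM in LGV and 201, 196 and 219 CPM in HGV (log2 fold change 0.85, SE 0.12, FDR 4.82e-05). These 3 genes were also separated without overlap, HMGCS1 again with a wide high glucose group.

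Smaller differences were found in the other members. FDPS had 34.8, 34.6 and 35.4 CPM in LGV and 44.1, 45.2 and 54.7 CPM in HGV (log2 fold change 0.44, SE 0.12, FDR 0.00802). PMVK had 13.6, 10.7 and 11.3 CPM in LGV and 14.2, 19.6 and 14.9 CPM in HGV (log2 fold change 0.43, SE 0.16, FDR 0.0354). Both calls were lost with single libraries left out. FDPS had a log2 fold change of 0.34 with an FDR of 0.0604 without HGV replicate 3. PMVK had 0.28 (FDR 0.150) without HGV replicate 2, 0.37 (FDR 0.132) without LGV replicate 2 and 0.39 (FDR 0.130) without LGV replicate 3. FDFT1 had 177, 227 and 211 CPM in LGV and 226, 288 and 243 CPM in HGV. These groups overlapped by 1 library on each side, with a log2 fold change of 0.28 (95% interval -0.0036 to 0.56, FDR 0.106). ACAT2 had 51.6, 58.6 and 53.2 CPM in LGV and 47.2, 52.0 and 54.4 CPM in HGV, a log2 fold change of -0.11 (95% interval -0.35 to 0.14, FDR 0.495). It was the only member with a negative value between HGV and LGV.

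The remaining comparisons asked what VPA did in each medium. Between HGV and HG, 1 of the 9 genes was higher (MVK) and 1 was lower (ACAT2), whereas 25.8% of the 16188 genes tested were called higher and 20.2% lower, 46.1% in all. The median log2 fold change was -0.12 over the 9 genes and 0.02 over all genes. ACAT2 fell from 91.1, 86.5 and 96.0 CPM in HG to 47.2, 52.0 and 54.4 CPM in HGV, a log2 fold change of -0.83 (SE 0.10, FDR 2.98e-05). With any 1 library left out its FDR was at most 0.000348. MVK rose from 24.9, 25.7 and 28.7 CPM to 35.3, 35.9 and 36.8 CPM, a log2 fold change of 0.44 (SE 0.11, FDR 0.00457). All HGV libraries of MVK lay above all HG libraries, which held for 30.1% of all genes tested, and all HGV libraries of ACAT2 lay below, which held for 24.5% (54.6% were apart in either direction).

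The other 7 genes did not pass the test between HGV and HG. The log2 fold change was 0.13 for SQLE (95% interval -0.10 to 0.36), -0.02 for FDFT1 (-0.28 to 0.24), -0.05 for IDI1 (-0.29 to 0.19) and -0.12 for FDPS (-0.38 to 0.13). It was -0.18 for PMVK (-0.52 to 0.16) and -0.20 for MVD (-0.47 to 0.06). For these 6 genes the intervals left room for changes of at most 0.52 on the log2 scale in either direction. HMGCS1 had the widest interval, with -0.37 (-0.78 to 0.04, FDR 0.133), and its HG and HGV libraries overlapped. Without HGV replicate 3, the highest HGV library of HMGCS1, the value was -0.57 with an FDR of 0.0320.

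**Figure D4:**
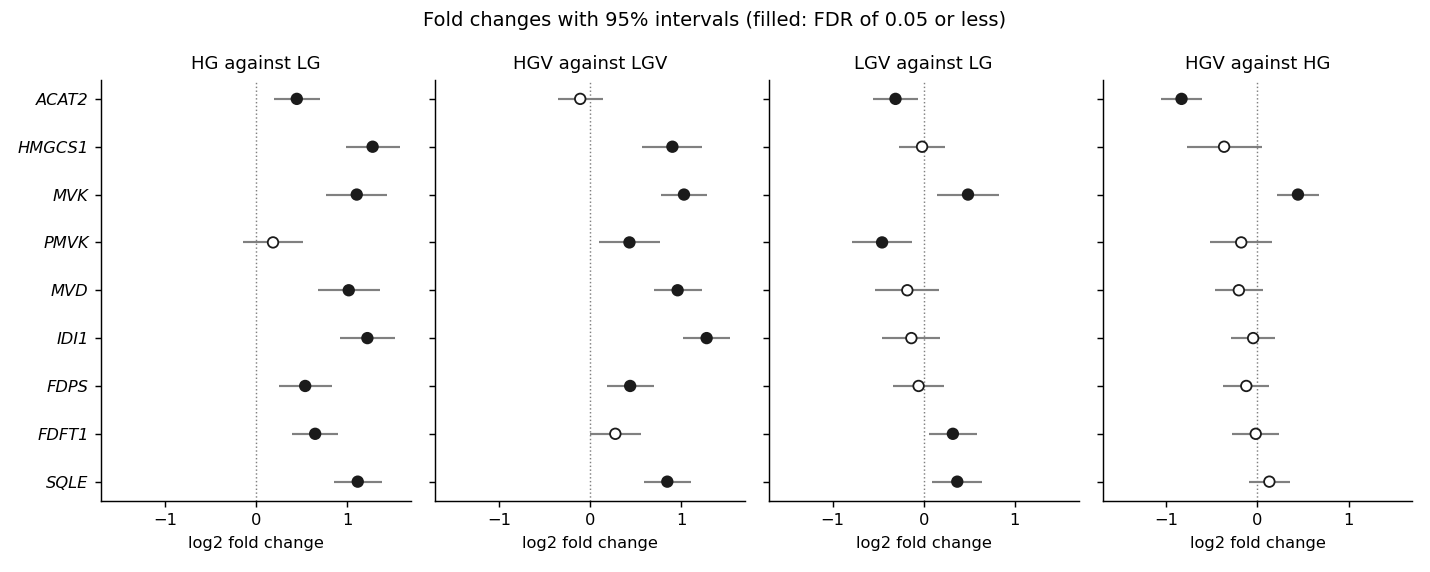
Log2 fold change of the 9 genes in pathway order for the glucose comparisons (left panels) and the VPA comparisons (right panels), with 95% intervals as lines and filled points for an FDR of 0.05 or less. Filled points lie right of 0 in the glucose panels, while the VPA panels hold ACAT2 on the left and MVK on the right in both media.

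Between LGV and LG, 3 of the 9 genes were called higher and 2 lower, against 21.7% and 19.9% of the 15944 genes tested, 41.6% in all. The median log2 fold change was -0.06 over the 9 genes and -0.01 over all genes. MVK was again higher, with 14.7, 10.3 and 12.6 CPM in LG and 16.3, 17.4 and 18.5 CPM in LGV (log2 fold change 0.49, SE 0.16, FDR 0.0238). SQLE (0.37, SE 0.13, FDR 0.0321) and FDFT1 (0.32, SE 0.12, FDR 0.0466) were higher by less. PMVK, with 17.8, 14.9 and 16.7 CPM in LG and 13.6, 10.7 and 11.3 CPM in LGV, was lower (-0.46, SE 0.16, FDR 0.0289). ACAT2 was lower too (-0.31, SE 0.12, FDR 0.0435). HMGCS1 (-0.02), IDI1 (-0.14), FDPS (-0.06) and MVD (-0.18) did not pass. The libraries of LGV and LG were apart for these 5 genes and for 50.5% of all genes, 25.7% with LGV higher and 24.8% with LGV lower. The 5 calls lay close to the threshold. The number called was 1 without LG replicate 1, 2 without LG replicate 3 and 0 without LGV replicate 2 or without LGV replicate 3. Without LG replicate 2 it was 3, all of them lower and including MVD, which was outside the 5. The signs of the 5 genes held in each case. Without LGV replicate 3 the values were 0.45 for MVK, 0.37 for SQLE, 0.31 for FDFT1, -0.40 for PMVK and -0.28 for ACAT2. Scaled by library size alone, the median over all genes moved from -0.01 to 0.16 and the calls of PMVK and ACAT2 were lost, with log2 fold changes of -0.29 and -0.15.

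Whether the response to VPA differed between the media was read from an interaction term, fitted to all 12 libraries. None of the 9 genes passed in edgeR's quasi-likelihood test, its likelihood ratio test or DESeq2, and 0.0427% of the 16389 genes tested passed the first of these (0.0244% higher and 0.0183% lower). At an unadjusted p under 0.05 there was 1 of the 9, ACAT2, and 11.3% of all genes. The fall of ACAT2 with VPA was larger in high than in low glucose by 0.51 on the log2 scale (-0.51, SE 0.15, unadjusted p = 0.00344, FDR 0.180). The log2 difference was -0.34 for HMGCS1 (95% interval -0.82 to 0.15), -0.33 for FDFT1 (-0.69 to 0.04) and -0.23 for SQLE (-0.58 to 0.13). It was 0.29 for PMVK (-0.18 to 0.76) and lay between -0.05 and 0.10 for MVK, MVD, IDI1 and FDPS.

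Several members share exon sequence with a gene on the opposite strand. Among them, HMGCS1 (2497 bases), IDI1 (643 bases) and FDFT1 (217 bases) overlap noncoding RNA genes that have no row in the table. The libraries were made with a kit that keeps the strand, but the sources used here do not say whether the counting used it, and without strand the reads of such pairs cannot be told apart. MVK lies on chromosome 12 from 110011060 to 110035930 and overlaps MMAB, which encodes the enzyme that makes adenosylcobalamin, by 225 bases of exon. The reference transcripts of MVK and MMAB start 290 bases apart and run away from each other, so the printed MVK window lies between these starts. MMAB had 14.7, 10.4 and 16.7 CPM in LG, 23.1, 25.0 and 28.5 CPM in HG, 8.10, 6.92 and 6.70 CPM in LGV and 11.7, 14.6 and 16.4 CPM in HGV. It was higher in HG than in LG (log2 fold change 0.90, FDR 0.00122) and in HGV than in LGV (0.96, FDR 0.000204), like MVK. With VPA it was lower where MVK was higher, by 0.93 on the log2 scale in low glucose (-0.93, FDR 0.00137) and by 0.84 in high glucose (-0.84, FDR 0.000424). MMAB was looked at for its overlap, after its values could be seen.

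**Figure D5:**
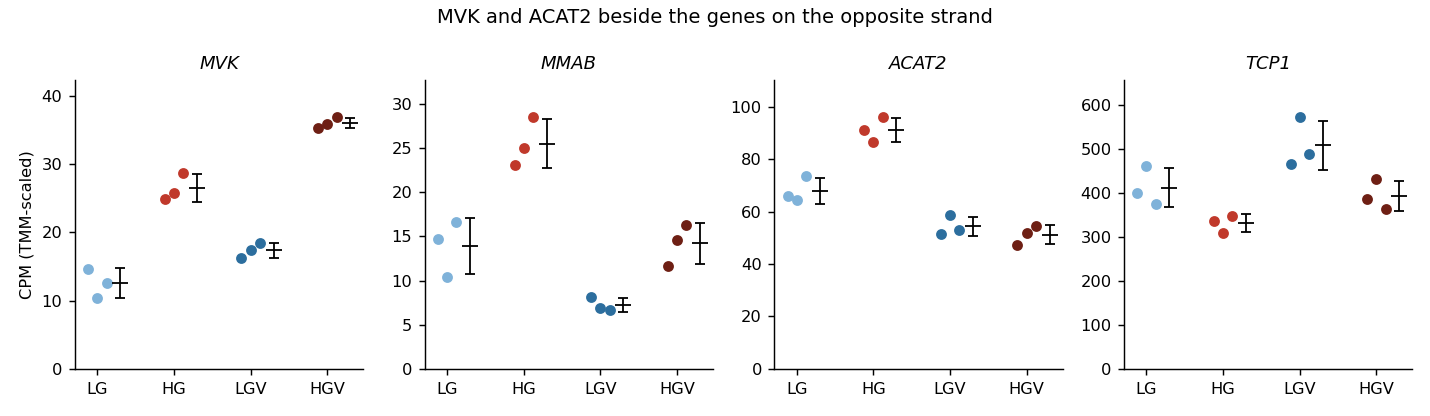
Level in CPM of MVK and ACAT2 beside MMAB and TCP1, opposite-strand genes with which they share exon sequence, with a point for each library and the mean and SD of each group. MVK and MMAB are both higher in high glucose, but VPA groups are higher for MVK and lower for MMAB.

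ACAT2 lies on chromosome 6 from 160183077 to 160200144, and 454 bases of its exons overlap those of TCP1, a subunit of the cytosolic chaperonin. Exons of ACAT2 also overlap those of SOD2 (133 bases) and SOD2-OT1 (98 bases) on the opposite strand, whose values were not analysed here. TCP1 had 399, 461 and 375 CPM in LG, 337, 308 and 348 CPM in HG, 466, 571 and 487 CPM in LGV and 387, 431 and 364 CPM in HGV. These levels, several times those of ACAT2, had log2 fold changes of the opposite sign to those of ACAT2 in both VPA comparisons and between HG and LG. The log2 fold change of TCP1 was -0.29 for HG against LG (FDR 0.0838), 0.31 for LGV against LG (FDR 0.0674), 0.25 for HGV against HG (FDR 0.0718), and -0.39 for HGV against LGV (FDR 0.0268). Its part in the values of ACAT2 was not tested. FDPS overlaps RUSC1-AS1 by 693 bases. That antisense gene had at most 4.71 CPM in any library, where FDPS had at least 30.8 CPM. Like FDPS, it was higher in HG than in LG (1.29, FDR 0.00148) and in HGV than in LGV (1.27, FDR 0.0023). The part of RUSC1-AS1 in the values of FDPS was not tested.

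The rest of the sterol pathway was read from lists of related genes. Of the 10 enzymes that lead from squalene epoxide to cholesterol, 5 were higher in HG than in LG and none was lower. Over all genes tested, 12.0% were called higher and 12.7% lower. The median log2 fold change of the 10 was 0.40. The largest values were those of MSMO1, a sterol demethylase, with 1.74 (FDR 2.15e-07), the sterol reductases DHCR7 with 0.86 and TM7SF2 with 0.77, and LSS, which closes the ring, with 0.65. Between HGV and LGV 6 were higher and none was lower, with a median of 0.47, beside 21.2% of all genes called higher and 19.5% lower. With VPA, 3 were called higher and 2 lower in low glucose, and 2 higher and 2 lower in high glucose, beside 41.6% and 46.1% of all genes called in either direction. SC5D, a sterol desaturase, was higher with VPA in both media (0.86 and 0.59). MSMO1 was higher with VPA in low glucose, with 0.89 (FDR 0.000242), and had 0.13 in high glucose (FDR 0.351), with an interaction FDR of 0.123.

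The genes that control SREBP did not move as a block. Of 6 with a row, SREBF2, which encodes SREBP2, was the one higher in HG, from 231 ± 19.2 to 361 ± 20.9 CPM (SD, n = 3; log2 fold change 0.67, FDR 0.000638). SREBF2 was also higher in HGV than in LGV, with 0.81 (FDR 7.03e-05). So was MBTPS2 (0.52), while INSIG2 (-0.74) and SCAP (-0.34) were lower there. Over all genes tested, 21.2% were called higher and 19.5% lower between HGV and LGV. INSIG2 (-0.57), SCAP (-0.44) and MBTPS1 (-0.39) were lower in HG than in LG, beside 12.0% of all genes called higher and 12.7% lower. With VPA, SREBF1 fell by 1.23 on the log2 scale in low glucose (-1.23, FDR 7.30e-06) and by 0.78 in high glucose (-0.78, FDR 0.000206). None of the 6 was called higher with VPA in low or high glucose, beside 21.7% and 25.8% of all genes. In low glucose 3 were called lower and in high glucose 2, beside 19.9% and 20.2% of all genes. SREBF2 was lower in LGV than in LG (-0.40, FDR 0.0140) and had -0.23 between HGV and HG (FDR 0.0736). SREBF1 and SREBF2 each overlap another gene on the opposite strand. MBTPS2 shares 1093 bases of exon with YY2 on the same strand.

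The branches that use farnesyl diphosphate for other products were read in the same way. Of 15 prenyltransferase, dolichol, ubiquinone and CAAX-processing genes, 1 was higher and 3 were lower in HG than in LG, with a median of -0.10. PGGT1B, a subunit of an enzyme that attaches geranylgeranyl groups, was higher (0.73), and FNTA (-0.53), NUS1 (-0.52) and RABGGTB (-0.40) were lower. Between HGV and LGV, 2 passed as higher and 4 as lower (median -0.02). The 4 and 6 calls among 15 genes stand beside 24.7% and 40.7% of all genes. With VPA, 8 of the 15 were lower and none was higher in each medium, with medians of -0.42 in low and -0.35 in high glucose, beside 41.6% and 46.1% of all genes called in either direction and 19.9% and 20.2% called lower. RABGGTA, a subunit of the enzyme that attaches such groups to Rab proteins, had -1.20 and -0.90, and FNTB, the catalytic subunit of farnesyltransferase, -0.78 and -0.91. Exons of FNTB overlap those of MAX on the opposite strand and, by 1661 bases, those of CHURC1-FNTB on the same strand. FNTA and RABGGTB also share exon sequence with genes on the same strand. Strand cannot separate the reads of same-strand pairs, and their part in these values was not tested.

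Relatives of the first enzymes were read beside them. ACAT1, the mitochondrial thiolase, had 62.1 ± 12.4 CPM in LG, 55.0 ± 7.07 CPM in HG, 52.7 ± 5.40 CPM in LGV and 59.9 ± 6.85 CPM in HGV (SD, n = 3). It passed the test in none of the 4 comparisons. ACSS2, which makes acetyl-CoA in the cytosol, was higher in HG (1.06, FDR 1.31e-05) and in HGV than in LGV (0.57). BDH1, a ketone body dehydrogenase, had log2 fold changes of -1.53 and -1.72 with VPA in low and high glucose.

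Outside these lists, genes were ranked by how closely their log2 CPM over the 12 libraries followed the mean standardized log2 CPM of the 9 members. Among the most alike of 11897 genes were KNG1, kininogen (Pearson's r 0.971), C12orf76 (0.969), LINC00920 (0.967), GSTA4, a glutathione transferase (0.955), and TNNI2 (0.953). KNG1 had 4.02 ± 0.184 CPM in LG, 14.2 ± 2.47 CPM in HG, 3.53 ± 0.219 CPM in LGV and 10.4 ± 1.92 CPM in HGV (SD, n = 3). The libraries form separate groups by glucose, so these values describe a shared difference between groups and not a relation within them.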

How the data were processed

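RNA-seq libraries of HepG2 cells in 4 groups of 3 were used. The authors used STAR for alignment of trimmed single-end 50 nt reads (GRCh37), and featureCounts for the number of reads on each gene. They deposited these counts without normalization, leaving out genes under 10 reads per sample on average. Counts were fitted here with edgeR 4.0.16 in R 4.3.3 (TMM, quasi-likelihood F test, Benjamini-Hochberg FDR over all genes with a mean count of 10 or more, threshold 0.05), using the libraries of each comparison, or all 12 for the interaction. Intervals are 95%. DESeq2 1.42.0 was an alternative. The edgeR fit was also run on simulated counts. These had the same dispersion for every gene and far fewer changed genes than were called between HG and LG. That run therefore cannot show the error rate of the fit in these data. Levels per kb used the reference (MANE Select) transcript. Positions came from GENCODE on GRCh37, promoter sequences from RefSeq, placed on GRCh37 by exact match. Same-numbered libraries of compared groups deviated together with correlations from -0.201 to 0.295. Differently numbered libraries were not compared in this way, so these values cannot decide whether numbers mark pairs. Numbers were not used as pairs in the main fits. The members, lists, motifs and tests were chosen with earlier results of these data known. Named were all members, up to 4 called genes of each list with the largest change, an isozyme, and genes most like the members. Some genes of the pathway are not reported here. IDI2 and INSIG1 were not analysed here.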

Additional observations from a re-analysis of the deposited data

How the results depend on the processing

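Of the 5 counts of members called, those for HG against LG, HGV against HG, HGV against LGV and the interaction stayed within 1.5 times of the reported count under all alternatives other than leaving out a library, namely other scalings, filters, tests and thresholds, the block and 1 fit of all libraries. With each library left out in turn they ran from 7 to 8, 2 to 3, 6 to 7 and 0 to 0, and that of LGV against LG from 0 to 4. For LGV against LG, library size scaling gave 3 members and an FDR of 0.01 gave 0. At an FDR of 0.01, 1852 genes were called for HG against LG, 4263 for HGV against LGV and 1 for the interaction. The interaction count of 7 genes became 1 with library size, 202 with the likelihood ratio test and 162 with DESeq2. Left-out libraries gave 1933 to 5338 genes for HG against LG and 1 to 217 for the interaction. Under library size scaling the median over all genes rose to 0.11 for HG against LG and 0.15 for HGV against HG, and the split of higher and lower calls moved from 1854 and 1959 to 2172 and 1297 for HG against LG, from 3461 and 3177 to 4500 and 1956 for LGV against LG, and from 4184 and 3272 to 5182 and 2424 for HGV against HG. The members called for HG against LG and HGV against LGV kept their direction under it. The sign of uncalled values turned under it for HMGCS1 (0.14), IDI1 (0.023) and FDPS (0.10) in LGV against LG and for IDI1 (0.076), FDPS (5.1e-05) and FDFT1 (0.10) in HGV against HG. FDFT1 was called for HGV against LGV under it (0.37, FDR 0.0162), and in LGV against LG its FDR was 0.0568 with DESeq2's size factors and 0.0540 with no filter.

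Signs also turned with a library left out. Ranges were -0.087 to 0.040 for HMGCS1, -0.37 to 0.00053 for MVD, -0.22 to 0.037 for IDI1 and -0.17 to 0.012 for FDPS in LGV against LG, and -0.12 to 0.010 for IDI1 and -0.12 to 0.062 for FDFT1 in HGV against HG. For the interaction they were -0.18 to 0.058 for MVK, -0.23 to 0.14 for MVD, -0.056 to 0.17 for IDI1 and -0.16 to 0.021 for FDPS. The cause was not tested.

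The labels number the replicates of each group alike, but the numbers are not said to mark shared cultures and were not used as pairs in the main fits. With the replicate number as a block, the interaction count was 13 genes, and the counts over all genes were 3351, 6971, 8229 and 7308 for HG against LG, LGV against LG, HGV against HG and HGV against LGV. HMGCS1 was then also called for HGV against HG (-0.38, FDR 0.00906) and FDFT1 for HGV against LGV (0.28, FDR 0.0474), and the block changed no other call of a member.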
